A study of Mus musculus with 12 samples.

Results

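Adora2a encodes a receptor for adenosine, and the constructs described here targeted Adora2a and neither Pdcd1 (PD-1) nor Ctla4 in a CRISPR screen of pooled constructs in CD8+ T cells of mice. They were chosen by their target labels alone. A target set had to contain Adora2a, could contain any of Tigit, Btla and Havcr2 (TIM3), and could contain neither Pdcd1 nor Ctla4. This left 48 of 689 constructs, 6 in each of 8 combinations: Adora2a alone, Adora2a+Btla, Adora2a+Havcr2, Adora2a+Tigit, Adora2a+Btla+Havcr2, Adora2a+Btla+Tigit, Adora2a+Havcr2+Tigit and Adora2a+Btla+Havcr2+Tigit. All 48 were listed in every library and no filter on low values was applied.

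Each lentiviral construct carried 4 sgRNAs in tandem, with non-targeting sgRNAs in the places that no target used, and mKate2 marked the transduced cells. The cells were CD8+ T cells of the C57BL/6 strain, stimulated ex vivo, transduced as a pool and injected at 10000000 T cells per recipient, 5 to 10% of them mKate2+, into mice inoculated with tumour cells 12 days before. The name of the deposited workbook gives the tumour as Hepa1-6, a mouse hepatoma line. The 2 conditions were the starting reference (SR), transduced cells frozen at the time of transfer, and tumour-infiltrating lymphocytes (TIL), CD8+mKate2+ cells sorted on day 7 after transfer. Each had 3 replicates, each TIL replicate pooled the cells of 3 to 4 mice, and each replicate was read over 2 regions of the construct: region 1 holds the spacers of sgRNA 1 and sgRNA 2, region 2 those of sgRNA 2 and sgRNA 3. The controls were 84 non-targeting constructs in the same cells and mice. Whether the targeted genes were cut cannot be read from these values, and fewer cells with a construct cannot be told apart from poorer amplification of it.

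The receptor encoded by Adora2a couples to the stimulatory G protein, raises cyclic AMP in T cells and thereby dampens signalling from the T cell receptor. Its ligand, adenosine, accumulates in hypoxic tumours, where ATP released by cells is degraded by the ectoenzymes CD39 and CD73. TIGIT, BTLA and TIM3 are surface receptors with inhibitory functions on T cells, bound among others by CD155, HVEM and galectin-9, so the combinations join a metabolite receptor to receptors for ligands on neighbouring cells.

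The members carried 9 distinct Adora2a spacers of 20 bases, each used in several constructs. The 9 sequences are shown because detection in the tumours was uneven over them. They are written 5′ to 3′, numbered in alphabetical order. Capitals mark bases that a spacer shares with another of the 9 because their target sites overlap: sg3 and sg7 share 15 bases on the same strand and lie 5 bases apart, and the ends of sg1 and sg4 overlap by 8 bases on opposite strands.
Adora2a-sg1: AGAAGTTGgtgacgttctgc
Adora2a-sg2: agcacacaagcacgttaccc
Adora2a-sg3: CAAAGACCTGCGGCGagggc
Adora2a-sg4: CAACTTCTtcgtggtatctc
Adora2a-sg5: catcggcctgacccccatgc
Adora2a-sg6: cgtcaccaagccattgtacc
Adora2a-sg7: ctccaCAAAGACCTGCGGCG
Adora2a-sg8: ggagagccaacccctaccag
Adora2a-sg9: tgtcgatggcaatagccaag

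The second set of sequences belongs to the 5 members found in the tumours in 2 or 3 replicates, since these are described one by one below. The construct against Adora2a alone held Adora2a-sg3 in the first place and no other targeting spacer. The Adora2a+Btla construct held Adora2a-sg3 followed by a Btla spacer. The Adora2a+Btla+Havcr2 construct held a Havcr2 spacer, Adora2a-sg7 and a Btla spacer, in that order. The Adora2a+Havcr2 construct held Adora2a-sg4 followed by a Havcr2 spacer, and the Adora2a+Havcr2+Tigit construct held the same Havcr2 spacer, then Adora2a-sg6 and a Tigit spacer. Their partner spacers are given in lower case, with no part marked.
Btla spacer of the Adora2a+Btla construct: ggaagggacactaacctggt
Havcr2 spacer of the Adora2a+Btla+Havcr2 construct: aatcccttgccccagcacat
Btla spacer of the Adora2a+Btla+Havcr2 construct: ttcatagacctaatgtgact
Havcr2 spacer shared by the Adora2a+Havcr2 and Adora2a+Havcr2+Tigit constructs: atcagttctgagcaactcgt
Tigit spacer of the Adora2a+Havcr2+Tigit construct: tgcaagccttacctgtagcg

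The deposited values are reads per construct that the authors scaled by library and rounded, called scaled reads here. Totals were 9963617 to 25646820 scaled reads in the SR libraries and 8288404 to 23012713 in the TIL libraries. Dividing by the library total gave CPM, which was averaged over both regions. In region 2 of SR 2, 2 members were at 0. The TIL libraries stood apart from SR as a whole: the median member had 9738.5 to 31683 scaled reads in the SR libraries and 0 to 7 in the TIL libraries, and 39 of 48 members were at 0 in region 2 of TIL 3, the TIL library with the smallest total. Detection in a TIL replicate means more than 1000 scaled reads in region 1 and in region 2, a threshold taken from an earlier analysis of these data. Replicates TIL 1 and TIL 2 shared 29 detected constructs over the whole library, against 18 shared by TIL 1 and TIL 3 and 14 by TIL 2 and TIL 3. For this reason results are also given without single replicates where that changed them. The labels do not say that the 3 replicates came from separate transductions, so the tests measure the spread between these samples.

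As a group, the Adora2a constructs without Pdcd1 or Ctla4 kept about the share of the pool that they had started with. They are 6.97% of the constructs. They took 7.11, 7.23 and 7.24% of the reads in SR replicates 1, 2 and 3 and 9.21, 6.25 and 6.60% in TIL replicates 1, 2 and 3. TIL 1 lay above all SR values, while TIL 2 and TIL 3 lay below them. The 84 non-targeting constructs went from 9.96, 11.0 and 11.2% in SR to 5.44, 4.26 and 8.98% in TIL, lower in each TIL replicate than in any SR replicate. The 42 constructs with the same partner targets and no Adora2a took 5.99, 6.09 and 6.06% in SR and 8.16, 3.20 and 6.84% in TIL. The 108 Adora2a constructs that also targeted Pdcd1, Ctla4 or both took 16.0, 15.3 and 15.2% in SR and 32.0, 28.8 and 12.7% in TIL. These shares are descriptions of the libraries and were not tested against each other.

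Within the group, the tumour share came from few constructs. Members were detected in 8, 5 and 6 of 48 cases in TIL 1, 2 and 3, which is 16.7% (95% Wilson interval 8.70 to 29.6%), 10.4% (4.53 to 22.2%) and 12.5% (5.86 to 24.7%). The intervals cover counting error only. Over all 689 constructs 11.3, 8.85 and 14.1% were detected in the same replicates, so the members' shares lay near the background. Non-targeting constructs were detected in 5, 2 and 9 of 84 cases, or 5.95, 2.38 and 10.7%. Over the 3 replicates the members averaged 13.2 ± 3.18%, non-targeting constructs 6.35 ± 4.18%, and the constructs with the same partners without Adora2a 11.9 ± 2.38% (SD, n = 3). These groups had started at median SR levels of 1063, 806 and 1115 CPM, in the same order.

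No replicate detected 35 of the 48 members, while 8 were detected once, 4 in 2 replicates and 1 in all 3. The members above 1000 scaled reads in at least 1 region held 99.9% or more of the members' TIL reads in each replicate. The detected members ranged from 5378 to 24234 CPM in TIL 1, from 9507 to 18636 CPM in TIL 2 and from 1477 to 25830 CPM in TIL 3. The members above the threshold in neither region reached at most 2.08, 8.14 and 0.4997 CPM in these replicates, and no member had a TIL value between 8.14 and 1291 CPM in any replicate. Starting abundance went along with detection: the median SR level was 2544 CPM over the 13 members detected at least once and 851 CPM over the 35 others, and over the whole library 1742 and 881 CPM. The part of starting abundance in detection was not tested.

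The Havcr2,Adora2a,Btla construct with Adora2a-sg7 was the member detected in all 3 replicates. It had 5149, 6557 and 6876 CPM in SR 1, 2 and 3, the highest starting level of the 48 members, and 24234, 18636 and 25830 CPM in TIL 1, 2 and 3. Every TIL value lay above every SR value. It ranked 6, 17 and 8 among all 689 constructs in the TIL replicates and alone held 26.3, 29.8 and 39.1% of the members' TIL reads. Its log2 level rose by 1.88 ± 0.20 (SE, n = 3; adjusted p = 0.000446 by limma), and the call held in every alternative that was run. It was the 1 of 48 members past the test in this direction, where the background was 0.435% of all constructs.

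The construct against Adora2a alone with Adora2a-sg3 had 2394, 2750 and 2489 CPM in SR and 7722, 11318 and 2925 CPM in TIL. Its TIL values all exceeded its SR values, but TIL 3 rested on region 1, with 132682 scaled reads there and 90 in region 2. The change was 1.32 ± 0.54 on the log2 scale and did not pass (SE, n = 3; limma adjusted p = 0.0910). With region 1 only it was 1.68 (adjusted p = 0.00123), with region 2 only -1.35 and with the authors' log2 ratios 0.016. Without replicates 1, 2 and 3 it was 1.14, 0.96 and 1.86 (limma adjusted p = 0.382, 0.312 and 0.00871).

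The Adora2a,Havcr2 construct with Adora2a-sg4 was likewise lowest in TIL 3. It had 1312, 1479 and 1179 CPM in SR and 8456, 9507 and 1291 CPM in TIL, where the TIL 3 value lay within the SR range and came from 58650 scaled reads in region 1 against 14 in region 2. The change of 1.83 ± 0.87 did not pass (SE, n = 3; limma adjusted p = 0.127). It was 2.15 with region 1 only (adjusted p = 0.0190), -1.11 with region 2 only and 0.38 with the authors' log2 ratios. Without replicates 1, 2 and 3 it was 1.41, 1.41 and 2.69 (limma adjusted p = 0.451, 0.427 and 0.000846).

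The remaining 2 constructs of this kind were abundant in 2 TIL replicates and near-absent in the other. The Havcr2,Adora2a,Tigit construct with Adora2a-sg6 went from 1063, 842 and 1018 CPM in SR to 7880, 9914 and 0.0660 CPM in TIL. The Adora2a,Btla construct with Adora2a-sg3 went from 2362, 2790.5 and 2704 CPM in SR to 1.02, 9766 and 15307 CPM in TIL. The first was missing in TIL 3 and the second in TIL 1. Their mean changes, -1.15 ± 3.99 and -1.96 ± 3.85 on the log2 scale (SE, n = 3), average gains and losses and did not pass (limma adjusted p = 0.796 and 0.658). The value turned with the replicate left out: without replicates 1, 2 and 3 the first was -3.17, -3.51 and 3.22, and the second 2.15, -3.84 and -4.19. For each, the value above 0 is the one that omits the replicate in which it was missing.

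The members were then sorted by their Adora2a spacer. All 6 members with Adora2a-sg3 were detected in at least 1 replicate, in 8 of 18 cases (44.4%), with 3, 2 and 3 detections in TIL 1, 2 and 3. None of the 7 members with Adora2a-sg5 was detected, 0 of 21 cases, which allows a share of up to 14.3%. Such a limit, here and below, is 3 divided by the number of cases. It counts cases as independent, although constructs share the same TIL replicates and each construct is counted in all 3 of them. The limit may therefore be too low. The remaining 35 members were detected in 11 of 105 cases (10.5%). Both extreme spacers had high starting levels, with median SR levels of 2582 CPM for sg3 and 2128 CPM for sg5. When only members of at least 1000 CPM in SR were counted, a limit chosen after the values were seen, sg3 stood at 8 of 18 cases, sg5 at 0 of 18 and the others at 8 of 39 (20.5%). Members with sg3 held 18.2, 19.4 and 18.9% of the members' SR reads and 21.9, 33.8 and 33.7% of their TIL reads. Members with sg5 held 19.1, 19.9 and 19.6% in SR and at most 0.00315% in TIL.

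The other spacers lay between these. Members with sg6 were detected in 3 of 15 cases, with sg7 in 3 of 18, all from the Adora2a+Btla+Havcr2 construct above, and with sg4 in 2 of 15. Members with sg8, sg9 and sg1 were detected in 1 of 12, 1 of 15 and 1 of 18 cases, and those with sg2 in 0 of 12, which allows up to 25%. Relative to the non-targeting mean, members with sg3 averaged 4.07 ± 0.78 and those with sg5 -1.81 ± 0.70 on the log2 scale (SD, n = 3). Those with sg2, also never detected, averaged 0.40 ± 0.93 (SD, n = 3). Their median SR level was 356 CPM, against 2128 CPM for sg5. For members above the threshold in no TIL library the change followed the SR level, as given below. The spacers sg3 and sg7 overlap at 15 of their 20 bases, and members with them averaged 4.07 ± 0.78 and 1.15 ± 0.86 (SD, n = 3).

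In the 108 Adora2a constructs that also targeted Pdcd1 or Ctla4, whose values had no part in sorting the members' spacers, sg3 again had the highest share of detected cases, 9 of 33 (27.3%). The next highest were sg8 with 6 of 27 and sg9 with 8 of 36 cases (22.2% each). There sg5 was detected in 6 of 45 cases (13.3%). The remaining spacers together were detected in 41 of 246 (16.7%), with sg7 lowest at 3 of 39 (7.69%). Relative to the non-targeting mean, these constructs averaged 3.03 ± 2.65 with sg3 and 2.68 ± 2.01 with sg8 (SD, n = 3). Counting constructs of at least 1000 CPM in SR, the shares were 6 of 15 (40.0%) for sg3, 5 of 24 (20.8%) for sg5 and 34 of 150 (22.7%) for the rest. So sg3 had the highest share in both sets of constructs, though close to sg8 and sg9 in the second, while sg5 went undetected in the members only. Spacers were compared after their values had been seen and no test was made. Constructs with the same Adora2a spacer also share a target site and, in places, partner spacers. Over the members' partner spacers detection was uneven too. Members with the Havcr2 spacer of the Adora2a+Btla+Havcr2 construct above were detected in 4 of 6 cases (66.7%), 3 of them from that construct. Those with another Tigit spacer were detected in 0 of 12. Median SR levels were 4274 CPM for the first and 217 CPM for the second. Both were picked as extremes after the values were seen, and the part of the SR level was not tested.

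Both regions agreed for most constructs, and where they did not, region 1 was the higher in all 4 member cases. These were Adora2a alone in TIL 3 and Adora2a+Havcr2 in TIL 3, described above, an Adora2a+Btla+Havcr2 construct with sg4 in TIL 2 (150722 scaled reads in region 1, 35 in region 2) and an Adora2a+Btla+Tigit construct with sg4 in TIL 1 (258958 and 455). Over the whole library 31 cases exceeded the threshold in region 1 only and 35 in region 2 only. The 4 member cases are 17.4% of the 23 above the threshold in either region, and the library's 66 are 21.9% of 302. No member shared its pair of spacers in region 1 or in region 2 with another construct.

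Next, each construct was compared between TIL and SR by limma over all 689 constructs. Of the 48 members 33 fell, or 68.8%, where the background was 67.8% of all constructs, and 14 did not pass. Their falls lay between -11.36 and -5.55 on the log2(CPM + 1) scale. None of the 33 exceeded 1000 scaled reads in any TIL library, and each of the 14 that did not pass exceeded it in at least 1. Over the members above the threshold in no TIL library, the fall followed the starting level almost without scatter (Spearman's rho of -0.99 over 33 members, and -0.99 over 68 non-targeting constructs, both values of a construct sharing the SR reads). The largest was that of Adora2a-sg5 alone, from 3222, 3056 and 3299 CPM in SR to 0.430, 0.130 and 0.110 CPM in TIL (-11.36 ± 0.14, SE, n = 3; limma adjusted p = 1.29e-07). The other undetected constructs against Adora2a alone changed by -7.93 (sg4), -8.25 (sg9), -9.33 (sg1) and -10.32 (sg8) on the log2 scale, all past limma, from mean SR levels of 276, 351, 662 and 1458 CPM.

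Against the non-targeting mean of each sample, 9 members were lower (18.8%) and 5 higher (10.4%), where the background was 21% lower and 4.64% higher. Both counts were 0 with the replicate block and with the authors' log2 ratios, and the lower count was 0 with constructs under 200 CPM in SR left out or TIL 1 and TIL 2 averaged. The non-targeting mean was itself -8.40, and 17 and 3 of the 84 non-targeting constructs were called lower and higher. An unadjusted p under 0.05 was found for 39.6% of all constructs. The 9 lower members were detected in no replicate and had started at 1076 to 3192 CPM, against a median of 572 CPM for the 24 other members above the threshold nowhere. The 6 lowest were Adora2a-sg5 alone (-2.96 ± 0.44), Adora2a+Btla+Tigit with sg5 (-2.94 ± 0.47), Adora2a+Btla with sg5 (-2.52 ± 0.46), Adora2a+Btla+Havcr2+Tigit with sg1 (-2.40 ± 0.41), Adora2a+Tigit with sg8 (-2.26 ± 0.46) and Adora2a+Havcr2 with sg5 (-2.26 ± 0.54), with limma adjusted p between 0.0269 and 0.0416 (SE, n = 3).

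The 5 higher members were of different kinds. Adora2a+Btla+Havcr2 with sg7 (10.28 ± 0.39), Adora2a+Havcr2 with sg4 (10.23 ± 1.15) and Adora2a-sg3 alone (9.72 ± 0.87) were abundant in TIL, with limma adjusted p of 0.000715, 0.0164 and 0.0108 (SE, n = 3). The other 2, Adora2a+Tigit with sg6 (2.85 ± 0.50, adjusted p = 0.0280) and Adora2a+Btla with sg5 in second place (1.95 ± 0.50, limma adjusted p = 0.0467; SE, n = 3), were near-absent. They had at most 0.0697 and 0.0696 CPM in the TIL replicates, and their mean SR levels of 51.6 and 96.4 CPM were the lowest of the members. Without replicate 1, 2 or 3 there were 0, 1 and 6 members called higher and 0, 0 and 10 called lower.

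By combination, 7 of the 8 lay above the non-targeting mean, as did 72 of all 101 (71.3%), and none of the 8 passed limma over the 101. With medians over constructs 3 of the 8 lay above 0, and 2 passed as lower, Adora2a alone and Adora2a+Tigit. Their median SR levels were 1060 and 1259 CPM, against 806 CPM for non-targeting constructs, and the part of this was not tested. In the fit with means over constructs 1 of 101 was higher (0.99%) and none lower. There 2 of the 8 had an unadjusted p under 0.05, against 18.8% of all combinations. The median of the 8 was 0.79 on the log2 scale and that of all 101 was 0.52. A combination value is the mean over 6 constructs minus the mean over non-targeting constructs, TIL minus SR.

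Adora2a+Btla+Havcr2 had the highest value of the 8, with 2.81, 2.87 and 1.01 in replicates 1, 2 and 3. The mean was 2.23 ± 0.62 (SE, n = 3; limma adjusted p = 0.153), rank 11 of 101. Without replicate 3 it was 2.84 and passed (limma adjusted p = 0.0214), and with the median over its constructs in place of the mean it was -0.55. It was above 0 in 3 of 3 replicates, and 3 of its 6 constructs were detected, in 5 of 18 cases. It took 1.49, 1.70 and 1.70% of the SR reads and 4.23, 2.19 and 2.73% of the TIL reads. Adora2a+Havcr2 was next with 3.03, 1.06 and 1.12, a mean of 1.74 ± 0.61 (SE, n = 3; limma adjusted p = 0.156), and 4 detections in 18 cases from 3 constructs. Its value with the median over constructs was -0.30. These 2 combinations had a value above 0 in each replicate.

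The other 6 combinations did not keep 1 direction over the replicates. Adora2a+Btla had -0.49, 2.09 and 0.99, and all of its detections came from the sg3 construct above. Adora2a+Havcr2+Tigit had 1.47, 2.51 and -1.52, also with a lone detected construct. Adora2a alone had 0.88, 1.43 and -0.043, with 1 of 6 constructs detected. Adora2a+Btla+Tigit spread widest, with 4.42, -0.66 and -2.81, a mean of 0.32 ± 1.59 (SE, n = 3; limma adjusted p = 0.919), and in TIL 1 it had 2 detected sg3 constructs at 5378 and 7039 CPM and an sg4 construct at 6035 CPM that was above the threshold in region 1 only. Adora2a+Btla+Havcr2+Tigit had -0.62, 0.47 and 0.72 with 1 detection, an sg8 construct at 13996 CPM in TIL 3. Adora2a+Tigit was the 1 combination below 0, with -0.54, -0.31 and 0.17, a mean of -0.23 ± 0.48 (SE, n = 3; limma adjusted p = 0.826), and its 1 detection was an sg3 construct at 2504 CPM in TIL 3.

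The constructs of a combination differed widely. The SD over the 6 construct means was 4.57 for Adora2a alone, 4.68 for Adora2a+Havcr2 and 4.22 for Adora2a+Btla+Havcr2, and smallest for Adora2a+Btla+Havcr2+Tigit with 1.71, on the log2 scale. By log2 change from SR to TIL, the highest and lowest members in Adora2a alone were sg3 (1.32) and sg5 (-11.36), in Adora2a+Btla sg3 (-1.96) and sg5 (-10.92), in Adora2a+Btla+Havcr2 sg7 (1.88) and sg5 (-10.18), and in Adora2a+Havcr2 sg4 (1.83) and sg5 (-10.66). In Adora2a+Btla+Tigit they were sg3 (-5.88) and sg5 (-11.34), and in Adora2a+Havcr2+Tigit sg6 (-1.15) and sg9 (-10.13). In Adora2a+Tigit they were the rare sg6 construct (-5.55) and sg8 (-10.66), and in Adora2a+Btla+Havcr2+Tigit sg2 (-6.38) and sg1 (-10.80). In these last combinations the highest member was undetected and had started low, at 51.6 and 121 CPM. The detected members, sg3 in Adora2a+Tigit and an sg8 construct in Adora2a+Btla+Havcr2+Tigit, stood below it at -6.70 and -6.96. For undetected members these changes follow the SR level, as above, so the lowest member of a combination is an undetected one that started high.

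Whether Adora2a adds to its partners was asked by setting each combination against the same targets without Adora2a. All 263 such additions of a gene within a class were fitted together, in which 2 were lower (0.76%), none was higher and 46 had an unadjusted p under 0.05. Of the 8 additions of Adora2a, none passed limma, 1 had an unadjusted p under 0.05, and 5 lay above 0, as did 133 of all 263 (50.6%). With medians over constructs 1 passed as higher, the addition to Btla+Havcr2+Tigit (2.06, limma adjusted p = 0.00995). There the median SR level was 2428 CPM without Adora2a and 662 CPM with it, and detections were 2 and 1 in 18 cases. The part of this SR difference in the value was not tested. With means over constructs, the median of the 8 additions was 0.42 on the log2 scale, against 0.080 over all 263.

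Adding Adora2a to Btla+Havcr2 gave the highest difference, with 3.42, 2.80 and 0.18 in replicates 1, 2 and 3. The mean was 2.13 ± 0.87 (SE, n = 3; 95% interval -0.016 to 4.28; limma adjusted p = 0.270), and with medians over constructs it was -0.93. Btla+Havcr2 without Adora2a had 0 of 18 cases above the threshold in both regions, against 5 of 18 with Adora2a, and 1 against 6 in either region. The 1 case was a construct in TIL 3 with 598881 scaled reads in region 1 and 0 in region 2. Of the 5 cases with Adora2a, 3 came from the construct with sg7. The median SR level was 715 CPM for Btla+Havcr2 and 2033 CPM for Adora2a+Btla+Havcr2, and the part of this difference in detection was not tested. Adding Adora2a to Btla gave -0.28, 2.33 and 2.31, a mean of 1.45 ± 0.73 (SE, n = 3; 95% interval -0.34 to 3.24; limma adjusted p = 0.343). Btla alone had 0 of 18 cases above the threshold in either region, which allows up to 16.7%, against 2 of 18 with Adora2a.

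Adding Adora2a to Havcr2 gave 0.15, 0.066 and -0.32, a mean of -0.032 ± 0.42 (SE, n = 3; 95% interval -1.07 to 1.01; limma adjusted p = 0.966). Havcr2 alone stood at 1.77 and Adora2a+Havcr2 at 1.74, with 5 and 4 detections in 18 cases. A difference of up to about 1 on the log2 scale in either direction lies within this interval. Adding Adora2a to Havcr2+Tigit gave -1.77, -1.80 and -1.58, the closest agreement between replicates among the 8. The mean of -1.72 ± 0.41 had the lowest p of the 8 but did not pass (SE, n = 3; 95% interval -2.72 to -0.71; limma adjusted p = 0.152). It was -0.24 with region 1 only (limma adjusted p = 0.912), -0.94 with the authors' log2 ratios and 0.46 with medians over constructs. Havcr2+Tigit without Adora2a had 3 cases detected in both regions, all from the same construct, and 2 more above the threshold in region 2 only. With Adora2a there were 2, both from the same construct, and none in 1 region only.

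The remaining additions were small or uneven. Adding Adora2a to Tigit gave a mean of 0.20 ± 0.73, to Btla+Havcr2+Tigit 0.65 ± 0.59 and to no other target 0.75 ± 0.55 (SE, n = 3; limma adjusted p between 0.545 and 0.899). Adding it to Btla+Tigit gave 2.48, -2.88 and -3.92, a mean of -1.44 ± 1.58 (SE, n = 3; limma adjusted p = 0.693), with an interval of -5.34 to 2.46.

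The series title names synergistic function, so each combination was also set against the sum of the values of its genes alone. Over 86 combinations of 2 or more genes none passed limma in either direction (0%), and 14 (16.3%) had an unadjusted p under 0.05. None of the 7 combinations with Adora2a had an unadjusted p under 0.05. Adora2a+Btla had an excess of 0.70 ± 1.07, Adora2a+Btla+Tigit 0.58 ± 1.22 and Adora2a+Btla+Havcr2 0.30 ± 0.91 on the log2 scale (SE, n = 3). Adora2a+Tigit had -0.56 ± 1.09, Adora2a+Havcr2 -0.79 ± 0.87, Adora2a+Havcr2+Tigit -1.28 ± 1.15 and Adora2a+Btla+Havcr2+Tigit -1.32 ± 1.46 (SE, n = 3; limma adjusted p between 0.557 and 0.831 over the 7). The median over the 7 was -0.56 and over all 86 it was -1.26. With medians over constructs Adora2a+Havcr2+Tigit and Adora2a+Btla+Havcr2+Tigit were 1.67 and 1.75 and passed as higher (limma adjusted p = 0.00832). Each had 1 of 6 constructs detected, and for undetected members the change followed the SR level, as above. Their median SR levels were 834 and 662 CPM. Those of Adora2a, Btla, Havcr2 and Tigit alone were 1060, 708, 1243 and 1415 CPM. The part of the SR level in these excess values was not tested. All 7 excess values crossed 0 in at least 1 alternative.

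By the authors' deposited tables, which list constructs at least 2-fold up in region 1 and region 2, 7, 5 and 3 of the 48 members were up in replicates 1, 2 and 3, or 14.6, 10.4 and 6.25%, where the background was 8.71, 7.55 and 6.1% of all constructs. Over the 3 replicates this is 15 of 144 member cases, or 10.4%, against 7.45% of all cases. In the authors' deposited table for replicate 1, Adora2a+Btla+Havcr2 and Adora2a+Havcr2 had 2 constructs up each, with a log2 enrichment of 2.28. In the authors' deposited tables for replicates 2 and 3, no member combination had more than 1 construct up, with an enrichment of 1.90 and 2.20 where 1 was up. Adora2a+Tigit had none up in any replicate.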

How the data were processed

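Per the labels' protocols, TIL were pelleted with a 50-fold number of Raji carrier cells, a human line, and amplified in 2 PCR steps, while SR was amplified directly. Bowtie2 is named per the submitters' processing notes, without its version. The deposited scores are scaled reads that the authors rounded to whole numbers; no source used here gives the scaling factor, so count tests were not used. The deposited log2 ratios were returned within 5e-05 when 10 was added to both values, and the deposited numbers of constructs up were returned by a recount. SR columns carry no replicate number and were numbered by the TIL library beside them.

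The CPM of regions 1 and 2 were averaged and log2(CPM + 1) tested with limma 3.58.1 in R 4.3.3, TIL against SR, with Benjamini-Hochberg adjustment over 689 constructs, 101 combinations, 263 gene additions or 86 excess values at 0.05. The scale understates the loss of constructs not seen. Same-numbered SR and TIL samples did not deviate together (correlations 0.075, -0.082 and 0.086), so no block was used. Alternatives were a pseudocount of 10, each region alone, constructs under 200 CPM in SR left out, each replicate left out, TIL 1 and TIL 2 averaged, the authors' log2 ratios, a replicate block, medians over constructs, and other detection thresholds. Named constructs were those detected in 2 or more TIL replicates, those past limma against non-targeting constructs (at most 6 per direction), the 6 constructs against Adora2a alone, and the highest and lowest of each combination. Members, threshold, lists and alternatives were chosen with earlier results of these data known. No genome build was given, so no coordinates are printed.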

Additional observations from a re-analysis of the deposited data

How the results depend on the processing

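The rise of the Adora2a+Btla+Havcr2 construct with Adora2a-sg7 passed under every alternative run, 29 to 38 members fell, and the share of detected cases ranged from 11.5 to 16.0%. The cause of the changes below was not tested. Members called higher numbered 3 with region 1 only and 1 to 4 with a replicate left out. Against non-targeting constructs, lower calls went from 9 to 14 with region 1 only and to 0 with constructs under 200 CPM left out, TIL 1 and TIL 2 averaged or the authors' log2 ratios, and to between 0 and 10 with a replicate left out. Higher calls went from 5 to 2 with region 2 only, 3 without the rare constructs, 2 with TIL 1 and TIL 2 averaged, 0 with the authors' ratios and 0 to 6 with a replicate left out. With the replicate block, 33 members fell and 1 rose, as without it, while 0 were lower and 0 higher against non-targeting constructs. The authors set each TIL library beside an SR library. Deviations of same-numbered samples did not go together, which cannot show whether the samples were paired.

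With medians over constructs the member mean was 0.041 in place of 0.84, 2 combinations were lower, Adora2a (-0.27) and Adora2a+Tigit (-0.49), and Adora2a+Btla (-0.089), Adora2a+Btla+Havcr2 (-0.55) and Adora2a+Havcr2 (-0.30) turned below 0. Additions of Adora2a became -0.27 to non-targeting, -0.28 to Btla, -0.93 to Btla+Havcr2, 0.074 to Btla+Tigit, 0.045 to Havcr2 and 0.46 to Havcr2+Tigit, and 1 addition was higher, that to Btla+Havcr2+Tigit (2.06). Excess values became -0.0076 for Adora2a+Btla, -0.12 for Adora2a+Btla+Havcr2, 0.31 for Adora2a+Havcr2 and 0.45 for Adora2a+Tigit, and 2 passed, Adora2a+Btla+Havcr2+Tigit (1.75) and Adora2a+Havcr2+Tigit (1.67). The median SR levels behind the passing values are given above, and their part in them was not tested.

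Adora2a+Btla+Tigit was -0.17 with a pseudocount of 10, -0.085 with region 2 only and -0.45 with TIL 1 and TIL 2 averaged. The addition to Havcr2 was 0.033 with a pseudocount of 10 and 0.094 with region 1 only, that to Tigit -0.42 without rare constructs, and the excess of Adora2a+Tigit 0.0089 with region 2 only. With region 2 only, Adora2a-sg3 alone was -1.35 and Adora2a+Havcr2 with sg4 -1.11. With a replicate left out, 0 to 1 combinations were higher, and the direction changed within these ranges: Adora2a+Btla+Tigit -1.73 to 1.88, Adora2a+Havcr2+Tigit -0.026 to 1.99, Adora2a+Btla+Havcr2+Tigit -0.072 to 0.60, the addition to Havcr2 -0.13 to 0.11 and to Tigit -0.26 to 0.95. Excess values ranged from -0.13 to 1.63 (Adora2a+Btla), -0.023 to 0.81 (Adora2a+Btla+Havcr2), -2.77 to 0.49 (Adora2a+Btla+Havcr2+Tigit), -0.63 to 1.24 (Adora2a+Btla+Tigit) and -1.41 to 0.26 (Adora2a+Tigit). Over all 11 alternatives the excess ranged from -0.13 to 1.67 (Adora2a+Btla), -0.12 to 1.12 (Adora2a+Btla+Havcr2), -2.77 to 1.75 (Adora2a+Btla+Havcr2+Tigit), -0.63 to 1.91 (Adora2a+Btla+Tigit), -1.04 to 0.31 (Adora2a+Havcr2), -2.51 to 1.67 (Adora2a+Havcr2+Tigit) and -1.41 to 0.45 (Adora2a+Tigit). The Adora2a+Btla construct with sg3 ranged from -4.19 to 2.15 and the Adora2a+Havcr2+Tigit construct with sg6 from -3.51 to 3.22. Members with sg3 were detected in 5 to 6 of 12 cases with a replicate left out and those with sg5 in 0, an alternative chosen after seeing the data. Members above the threshold in no TIL library had at most 69 scaled reads in any of them. Sorted TIL numbered 20000 to 40000 per tumour. The part of sequencing depth or of cell number in these low values was not tested.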

Other observations

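Adding Pdcd1 or Ctla4 to a combination of Adora2a gave 14 differences, none of which passed limma over the 263 additions. The lowest adjusted p belonged to Pdcd1 added to Adora2a+Btla, with 1.30, 0.74 and 2.15 in replicates 1, 2 and 3 and a mean of 1.40 ± 0.53 in log2 units (SE, n = 3; adjusted p = 0.248 by limma). Pdcd1 added to Adora2a+Btla+Tigit gave 2.32 ± 0.90 and was above 0 in 3 of 3 replicates (SE, n = 3; limma adjusted p = 0.252). Ctla4 added to Adora2a+Btla+Havcr2, the highest of the 8 combinations, gave -1.88, -0.59 and -0.96, a mean of -1.14 ± 0.46 (SE, n = 3; limma adjusted p = 0.270).

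Members with Tigit were detected in 6 of 72 cases (8.33%) and those without it in 13 of 72 (18.1%). Those with Havcr2 were detected in 12 of 72 (16.7%) and those without it in 7 of 72 (9.72%), and those with Btla in 10 of 72 (13.9%) against 9 of 72 (12.5%). The Adora2a+Btla+Havcr2 construct with sg7 alone gave 3 of the 13 detections without Tigit, 3 of the 12 with Havcr2 and 3 of the 10 with Btla. The median SR level was 1013 CPM with Tigit and 1277 CPM without it. These splits share constructs and were not tested.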
